A study of Mus musculus with 12 samples.

Results

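Transcripts of voltage-gated calcium channel subunits were examined along their exons in the brains of newborn mice. The members were the main probesets whose gene symbol was one of 10 subunit genes, chosen by name. Probesets were found for 9 of the 10 genes, out of 17550 gene symbols in the series, and Cacna1i was not analysed here. They comprised 460 probesets, of which 456 were kept after the filter on replicate spread described with the processing. The series compared 6 wildtype (KIS +/+) with 6 KIS-ko (KIS -/-) female newborns, as 6 pairs of littermates with 1 pair per litter, and each whole brain was hybridized to its own Affymetrix exon array. KIS, the product of Uhmk1, is a protein kinase that phosphorylates the splicing factor SF1. The mice had been backcrossed for 10 generations to C57BL6/N, came from matings of heterozygotes and were not treated. The deletion was present throughout the animal, so that effects arising inside and outside the brain cannot be told apart. In RNA of a whole brain, fewer cells of a type and less RNA per cell cannot be told apart either.

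Voltage-gated calcium channels open when the membrane depolarizes and let calcium into the cell, where it triggers transmitter release, shapes firing and regulates transcription. The alpha1 subunit forms the pore and sets the channel type, and the extracellular alpha2delta and cytoplasmic beta subunits control how many channels reach the membrane and how they gate. Cacna1c and Cacna1d encode pores of the L-type, which couple activity to gene expression in neurons. Cacna1a (P/Q-type) and Cacna1b (N-type) encode the main pores of presynaptic terminals, and Cacna1e encodes the R-type pore. Cacna1g, Cacna1h and Cacna1i encode T-type pores, which open near the resting potential, and Cacna2d1 and Cacna2d2 encode alpha2delta subunits, the former a binding site of gabapentin. Alpha1 genes are long, with many exons, and their transcripts are spliced in many forms.

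The targeted gene was checked first. The gene value, which is the mean over the probesets of a gene of log2(signal + 16), was 10.97 for Uhmk1 in wildtype and 8.85 in KIS-ko brains, and was lower in 6 of 6 litters (difference -2.11, limma with the litter as a block, adjusted p = 2.9e-07). Median signals of the main probesets with a symbol lay between 478 and 546 over the 12 arrays, and the medians of the log2 values kept were lower in the KIS-ko littermate in 5 of 6 litters. Of 8 neuron markers, 6 were measured, and each of them had most of its probesets above background on every array. No gene on 9 lists of cell type markers passed the adjusted threshold between genotypes, and 1 astrocyte marker (Gfap) and 1 mural marker (Rgs5) had an unadjusted p under 0.05. Both brains of litter 5 stood below the others in many of the genes described here, and without this litter no member was called between genotypes either.

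Levels at birth were read against the background of each array. A probeset was counted as detected when its signal exceeded the 95th percentile of the 5222 intron controls of the same array, which lay between 655 and 750. Of the 456 member probesets, 345 (75.7%) were detected on all 12 arrays and 52 (11.4%) on none, against 38.3% and 48.8% of all 205469 probesets. Because probes differ in affinity, the signals do not rank one gene against another, and the share detected is a description of each gene.

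The pores of presynaptic terminals were detected in most of their probesets. Cacna1b had 54 of 59 probesets (91.5%) and Cacna1a 35 of 45 (77.8%) detected on all 12 arrays, and Cacna1e had 40 of 51 (78.4%). Of the L-type genes, Cacna1c had 51 of 66 (77.3%) and Cacna1d 29 of 59 (49.2%), the lowest share among the 9 genes. Both T-type genes were detected, Cacna1g in 37 of 51 probesets (72.5%) and Cacna1h in 33 of 43 (76.7%). The alpha2delta genes had 27 of 38 (71.1%) for Cacna2d1 and 39 of 44 (88.6%) for Cacna2d2. For comparison, 1 of 47 probesets of Cacna1f, the L-type pore known from the retina, and 1 of 41 of Cacna1s, that of skeletal muscle, were detected on all 12 arrays. These channel genes of the same family were thus near background in brain, while every one of the 9 members was above it in a large part of its probesets.

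**Figure D1:**
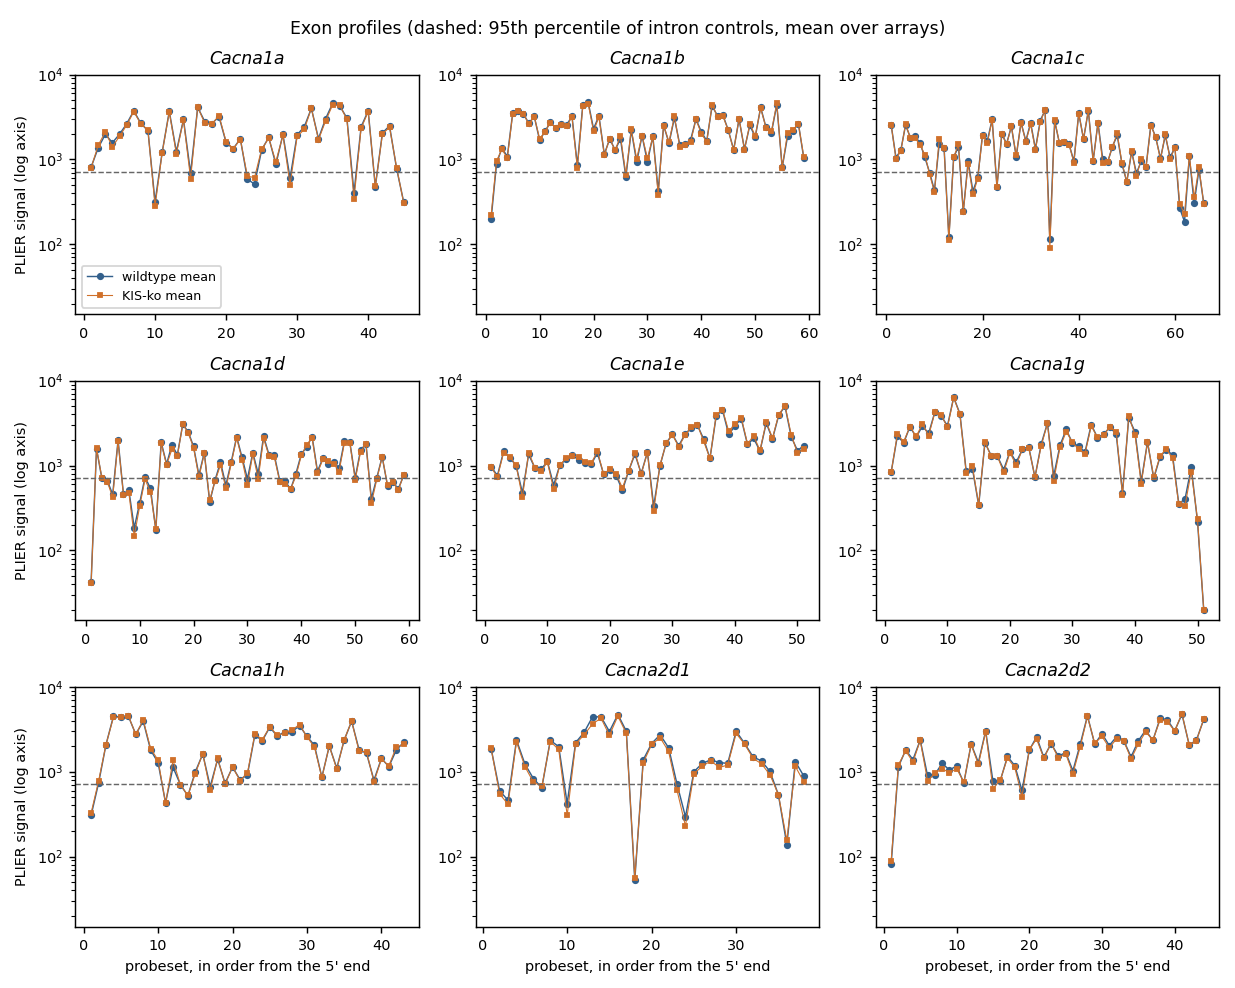
Mean PLIER signal (log axis) of each probeset in order from the 5' end, for the 9 genes, with wildtype means as blue circles and KIS-ko means as orange squares, and the mean over arrays of the 95th percentile of intron controls as a dashed line. The profiles of the genotypes lie on top of each other, and single probesets drop far below their neighbours at the same place in both.

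Each gene had its own profile of bright and dim probesets, and the profile was repeated from brain to brain. The correlation of the log2 values along a gene between any 2 arrays lay between 0.952 and 0.997 over the 9 genes. This is a correlation over probesets of a gene, which share the probes and their affinities between arrays. The SD of the profile along a gene ranged from 0.85 (Cacna1b) to 1.30 (Cacna2d1) on the log2 scale, against a median of 0.97 over all genes. The median SD of a probeset over arrays, after subtraction of its gene mean on the same array, was 0.085 (Cacna2d2) to 0.122 (Cacna2d1), against 0.141 over all probesets. The SD along a gene includes differences in affinity between probes, and that over arrays does not.

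The 52 probesets detected on no array were spread over the genes. Of these, 7 were the first or last probeset of their gene and 18 lay between neighbours that were both detected on all 12 arrays. The table marks 7 of the 52 as open to cross-hybridization. Whether an exon was left out of the transcript or its probes bound poorly cannot be told apart by signal alone.

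The 5' ends of the L-type genes showed steps between neighbouring probesets. Cacna1d (chromosome 14, 30853176 to 31304286, minus strand, positions as the table lists them) spans 451 kb. Its first probeset, at 31304183 to 31304286, had signals of 32.0 to 51.2 in wildtype and of 21.7 to 54.2 in KIS-ko brains. It was detected on none of the 12 arrays. Its second probeset, at 31166111 to 31166150, ranged from 1451 to 1775 in wildtype and from 1367 to 1789 in KIS-ko brains, and was detected on all 12, although the table marks it as open to cross-hybridization. Probesets 3, 4 and 5, marked as matching 1 place, had wildtype means of 705, 664 and 457 and were detected on 9 arrays, 4 arrays and none. Probeset 6 was again detected on all 12, but it too is not marked as matching 1 place. The signals of the genotypes overlapped at the first and the second probeset.

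In Cacna1c (chromosome 6, 118542833 to 119058229, minus strand, 515 kb) the order was the opposite. The first 3 probesets, which the table assigns to the transcript NM_001159533, had wildtype means of 2557 ± 229, 1050 ± 117 and 1279 ± 138 (SD, n = 6) and were detected on all 12 arrays. Probesets 9 and 10, assigned to the messenger RNA U17869 and lying 350263 bases downstream, had wildtype means of 699 ± 147 and 431 ± 126 (SD, n = 6), and were detected on 3 arrays and on none. Probeset 9 is marked as open to cross-hybridization, and probeset 10 as matching 1 place. KIS-ko means at these probesets were 667 ± 27.8 and 415 ± 58.9 (SD, n = 6). The next probeset, assigned to NM_009781, was again detected on all 12, with signals between 1210 and 1993.

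**Figure D2:**
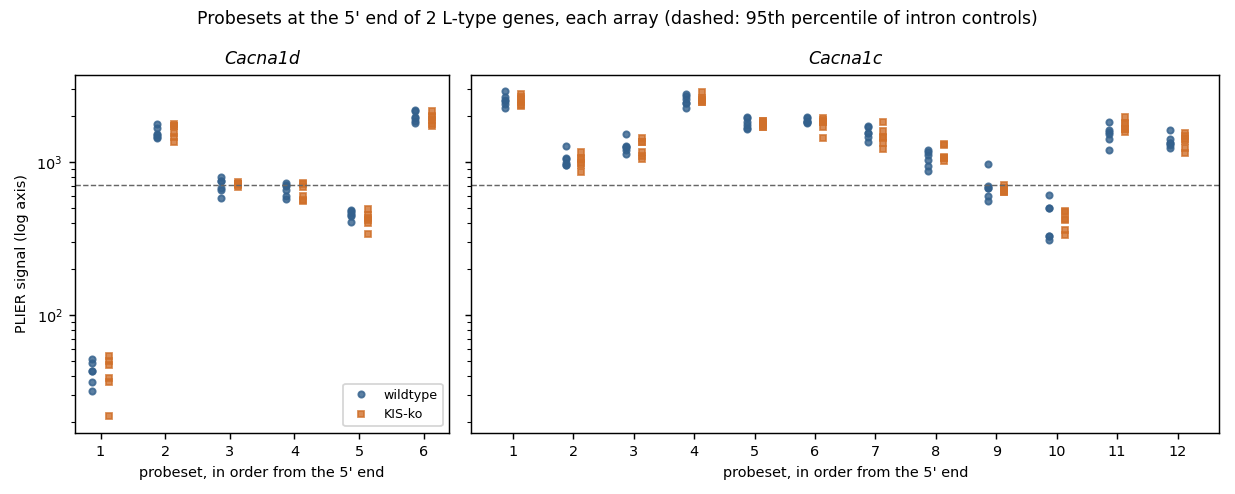
Signal (log axis) of every array at the first 6 probesets of Cacna1d and the first 12 of Cacna1c, with wildtype as blue circles, KIS-ko as orange squares and the mean 95th percentile of intron controls as a dashed line. The first probeset of Cacna1d lies below 55 on every array and the second above 1300, while in Cacna1c probeset 10 lies below the line on every array and probeset 9 near it, with 1 array at 978.

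RefSeq lists several starts for both genes, and the windows from 250 bases before to 50 after a start are shown because they differ in sequence where the probesets differ in signal. In all, 10 windows of 7 of the 10 genes were matched by symbol among 32851 windows. The RefSeq starts (GRCm38.p6) of Cacna1d lie 137670 bases apart and its first 2 probesets 138136, and the last 2 starts of Cacna1c lie 350521 bases apart. Probesets were assigned to starts by order and these spacings, since the build of the table's positions is not named. All are on the minus strand, 5′ to 3′, with CpG dinucleotides in capitals.
Cacna1d, first start, chr14:30491107-30491406: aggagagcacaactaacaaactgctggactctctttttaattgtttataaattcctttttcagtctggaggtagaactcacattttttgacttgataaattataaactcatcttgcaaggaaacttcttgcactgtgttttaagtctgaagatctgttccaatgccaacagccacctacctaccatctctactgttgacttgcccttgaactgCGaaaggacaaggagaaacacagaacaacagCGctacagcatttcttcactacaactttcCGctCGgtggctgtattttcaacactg
Cacna1d, second start, chr14:30353437-30353736: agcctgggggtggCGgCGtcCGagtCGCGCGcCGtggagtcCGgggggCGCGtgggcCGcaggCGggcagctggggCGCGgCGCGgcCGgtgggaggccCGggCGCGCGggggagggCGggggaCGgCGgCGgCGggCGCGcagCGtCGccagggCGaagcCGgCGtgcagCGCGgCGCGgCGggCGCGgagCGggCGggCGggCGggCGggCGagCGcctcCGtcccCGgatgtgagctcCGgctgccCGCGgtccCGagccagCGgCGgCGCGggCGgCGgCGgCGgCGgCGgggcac
Cacna1c, second start, chr6:119108446-119108745: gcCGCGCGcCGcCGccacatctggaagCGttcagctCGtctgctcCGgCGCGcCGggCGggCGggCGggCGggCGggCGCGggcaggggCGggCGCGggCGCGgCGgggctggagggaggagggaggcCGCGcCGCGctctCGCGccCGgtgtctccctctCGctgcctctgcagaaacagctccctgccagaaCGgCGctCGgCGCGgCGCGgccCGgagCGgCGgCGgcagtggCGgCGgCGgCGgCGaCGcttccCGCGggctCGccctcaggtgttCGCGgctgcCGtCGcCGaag
Cacna1c, last start, chr6:118757925-118758224: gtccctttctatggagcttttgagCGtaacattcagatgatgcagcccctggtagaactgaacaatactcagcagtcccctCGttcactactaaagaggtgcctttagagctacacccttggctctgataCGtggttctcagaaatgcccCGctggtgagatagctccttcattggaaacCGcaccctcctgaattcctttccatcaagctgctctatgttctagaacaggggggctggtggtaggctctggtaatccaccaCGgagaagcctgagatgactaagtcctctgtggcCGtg

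In these 2 genes, the windows assigned to detected probesets were dense in CpG and those assigned to dim ones were not. For Cacna1d this rests on 1 probeset open to cross-hybridization. For Cacna1c, probeset 9 at the last start is also open to it and was detected on 3 arrays, while probeset 10 matches 1 place. The first window of Cacna1d held 4 CpG at a GC content of 40.3%, and the second 63 at 87.3%, at the 99.97th percentile of all windows. The second window of Cacna1c held 57 CpG and the last 7, the latter equal to the median of all windows. The first window of Cacna1c, at chr6:119196360-119196659, held 3 CpG, and no probeset was assigned to it. On either strand, TATAAA was found in 1 of the 10 windows, the first of Cacna1d (13.6% of all windows), and GGGCGG in 5, including both CpG-rich windows above (35.7% of all windows). TGACGTCA was found in none (1.79% of all windows). Each of 4 other measured members had 1 window. Cacna2d1 had 42 CpG (percentile 97.0), and its first probeset was detected on all 12 arrays. Cacna1e departed from the pattern, with 11 CpG (percentile 58.6) and a first probeset detected on all 12 arrays. Cacna1b and Cacna2d2 departed in the other direction, with 35 and 43 CpG (percentiles 93.0 and 97.4) and a first probeset detected on no array. The windows are a description, with no test.

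Other genes had dim first or last probesets. The first probeset of Cacna1b, a gene of 156 kb on chromosome 2 (24462163 to 24618655, minus strand), had a wildtype mean of 200 ± 31.5 and the second of 888 ± 78.7 (SD, n = 6). In Cacna1h (chromosome 17, 25511439 to 25570113, minus strand) the first had 307 ± 64.2 and the second 732 ± 104. In Cacna2d2 (chromosome 9, 107301959 to 107431198, plus strand) the first had 81.3 ± 22.9 and the second 1147 ± 98.7. The last probeset of Cacna1g (chromosome 11, 94269834 to 94334882, minus strand) had 19.7 ± 7.0 in wildtype and 19.6 ± 6.71 in KIS-ko brains, and that of Cacna1a (chromosome 8, 86939503 to 87163594, plus strand) had 314 ± 55.5. The last of Cacna1c had 303 ± 35.7. None of these end probesets was detected on any array.

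Within genes, dim probesets also lay inside bright runs. In Cacna1c probeset 34, at 118624375 to 118624412, had a wildtype mean of 114 ± 25.6 between neighbours of 3806 ± 428 and 2817 ± 211 (SD, n = 6). In Cacna2d1 (chromosome 5, 15440843 to 15876647, plus strand) probeset 18, at 15828357 to 15828389, had 52.8 ± 13.6 between neighbours of 3000 ± 215 and 1378 ± 202. In Cacna1a probeset 10, at 87057356 to 87057380, had 316 ± 62.0 between 2178 ± 190 and 1213 ± 152, and probeset 38, at 87138594 to 87138645, had 404 ± 44.6 between 3072 ± 152 and 2419 ± 113. In Cacna1b probeset 32, at 24514028 to 24514070, had 425 ± 76.4 between 1871 ± 203 and 2524 ± 271. The neighbours were detected on all 12 arrays and the probesets between them on none. Cacna1e (chromosome 1, 156244015 to 156572942, minus strand) had 3 probesets detected on no array, none of them at an end, and its profile was higher toward the 3' end, from a median of -0.45 log2 units in the 17 probesets nearest the 5' end to 0.63 in the 17 nearest the 3' end, relative to the gene.

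The next comparison asked whether loss of KIS changed the level of these genes within litters. No member passed the adjusted threshold of 0.05 (limma, adjusted p between 0.685 and 0.993), and none had an unadjusted p under 0.05, against 0.00579% and 6.16% of all 17279 genes (4.34% lower and 1.82% higher in KIS-ko). The direction followed the centring of the arrays: 6 of 9 members were lower in KIS-ko as deposited, where 69.8% of all genes were, 2 of 9 with each array centred on its own median, where 37.8% were, and 3 of 9 after a new quantile normalization, where 48.8% were. The median difference was -0.026 over the members and -0.036 over all genes. In no member were the groups free of overlap, as was the case in 0.122% of all genes with lower and 0.0868% with higher values in KIS-ko. The 95% confidence intervals of the 9 differences together spanned -0.24 to 0.12 on the log2 scale.

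**Figure D3:**
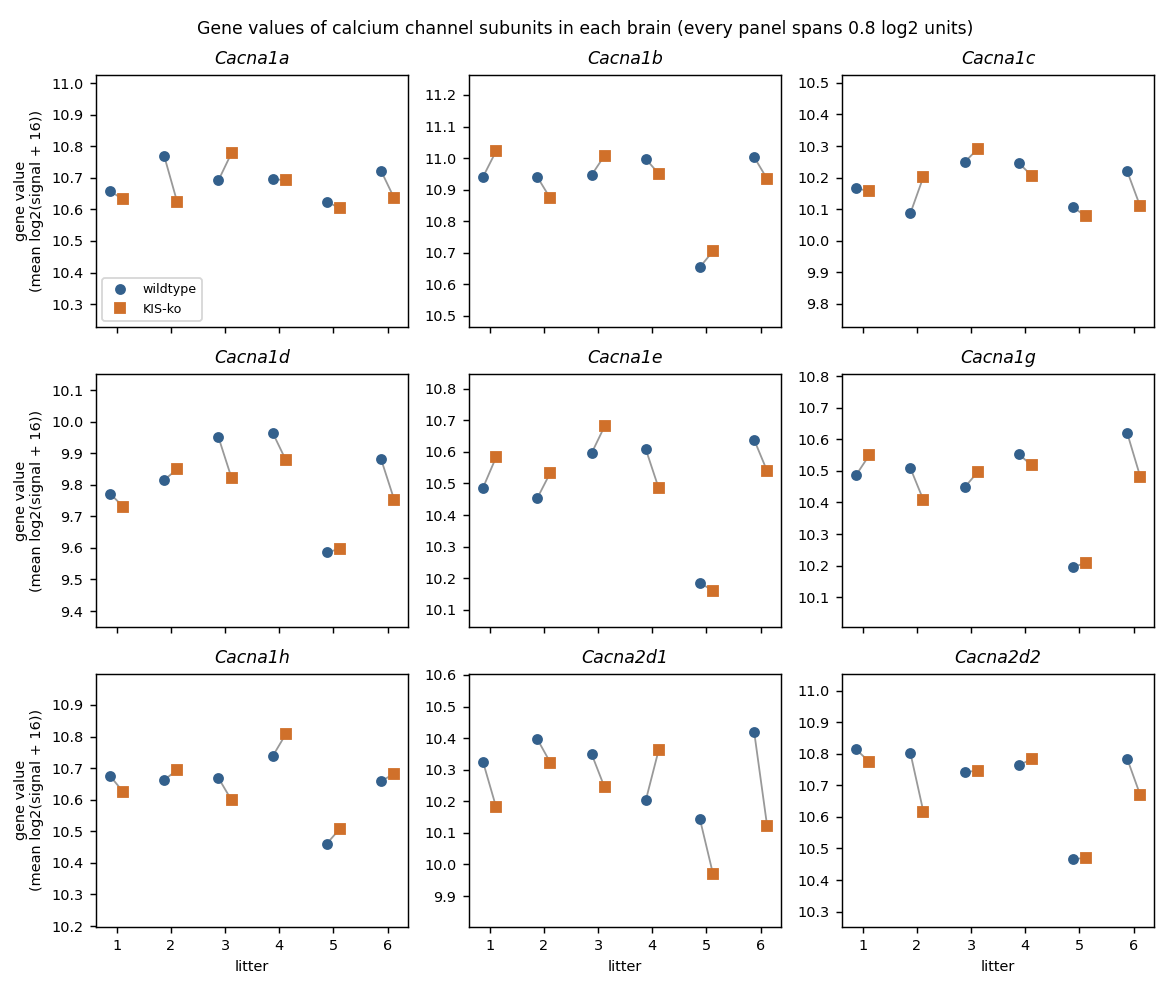
Gene value (mean log2(signal + 16)) of each brain by litter, for the 9 genes, with wildtype as blue circles, KIS-ko as orange squares and littermates joined by a line. Every panel spans 0.8 log2 units, the genotypes overlap in all 9, and in 6 panels (Cacna1b, Cacna1d, Cacna1e, Cacna1g, Cacna1h and Cacna2d2) both brains of litter 5 are the lowest.

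The L-type genes showed no difference beyond the spread between litters. Gene values of Cacna1c had a lowest, median and highest of 10.09, 10.19 and 10.25 in wildtype and of 10.08, 10.18 and 10.29 in KIS-ko brains. The difference was -0.0052 ± 0.048 (SE, n = 6 litters), and it had the other sign after centring (0.051). Cacna1d had 9.59, 9.85 and 9.96 in wildtype and 9.60, 9.79 and 9.88 in KIS-ko brains. Its difference was -0.056 ± 0.047, with lower values in 4 of 6 litters, and -0.00064 after centring, with lower values in 2 of 6.

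The presynaptic and R-type pores did not pass the test either. Cacna1a had 10.62, 10.69 and 10.77 in wildtype and 10.60, 10.63 and 10.78 in KIS-ko brains. It was lower in 5 of 6 litters, by 0.0017 to 0.15, with a difference of -0.032 ± 0.048 that became 0.023 after centring. Lower values in at least 5 of 6 litters were found in 22.5% of all genes and in 2 members, and higher ones in 6.15% and in none. No member moved the same way in 6 of 6 litters, as did 1.6% of all genes downward and 0.92% upward. Cacna1b had 10.66, 10.94 and 11.003 in wildtype and 10.71, 10.94 and 11.02 in KIS-ko brains (difference 0.0016 ± 0.047, and 0.057 after centring). Cacna1e had 10.19, 10.54 and 10.64 in wildtype and 10.16, 10.54 and 10.68 in KIS-ko brains (difference 0.0021 ± 0.051, and 0.058 after centring), and as deposited its 6 litters divided into 3 higher and 3 lower.

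The T-type pores gave the same picture. Cacna1g had 10.20, 10.50 and 10.62 in wildtype and 10.21, 10.49 and 10.55 in KIS-ko brains, with a difference of -0.026 ± 0.048 that became 0.030 after centring. Cacna1h had 10.46, 10.67 and 10.74 in wildtype and 10.51, 10.65 and 10.81 in KIS-ko brains, with a difference of 0.0085 ± 0.045 (0.064 after centring) and higher values in 4 of 6 litters.

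Of the alpha2delta subunits, Cacna2d1 had the largest difference among the members as deposited, while after centring Cacna1b, Cacna1c, Cacna1e and Cacna1h differed by more, in the other direction. Its gene values were 10.14, 10.34 and 10.42 in wildtype and 9.97, 10.21 and 10.36 in KIS-ko brains, and were lower in 5 of 6 litters, the exception being litter 4 at 0.16. The difference was -0.11 ± 0.060 (limma, adjusted p = 0.685), or a fold of 0.930 with a 95% interval from 0.847 to 1.02, and did not pass the test. It was -0.16 without litter 4 and -0.067 without litter 6, and -0.050 after centring. In litter 4 the median of the KIS-ko array was itself higher than that of its littermate, by 0.094. Cacna2d2 had 10.47, 10.77 and 10.81 in wildtype and 10.47, 10.71 and 10.78 in KIS-ko brains, with a difference of -0.052 ± 0.048 that became 0.0036 after centring.

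**Figure D4:**
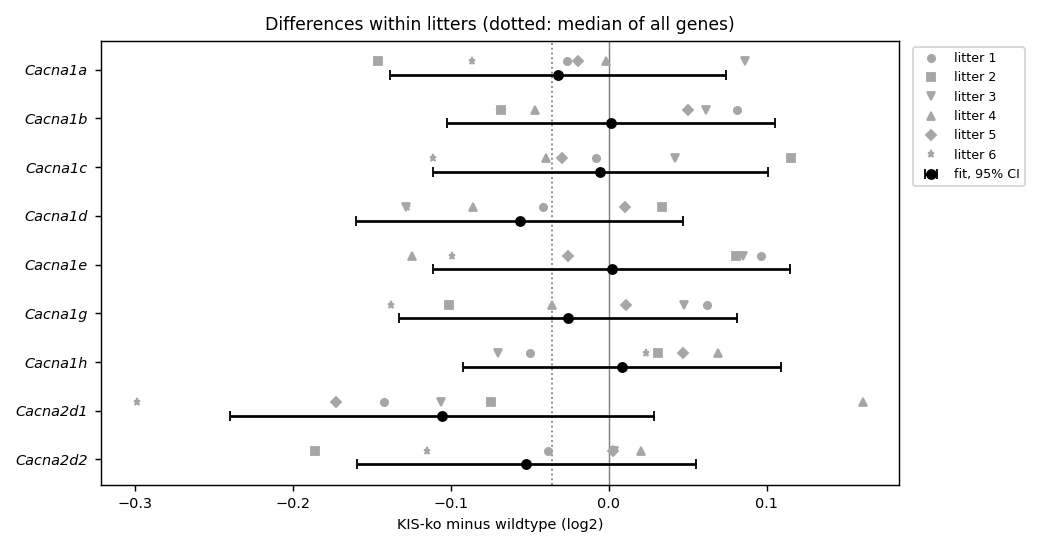
KIS-ko minus wildtype difference of the gene values (log2) for the 9 genes, with the fitted difference and its 95% confidence interval in black, the 6 litters as grey symbols and the median of all genes as a dotted line. All 9 intervals cross 0, and Cacna2d1 has the lowest estimate at -0.11 and the widest spread over litters, from -0.30 to 0.16.

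A change in a single exon can be hidden in the mean over a long gene, and single probesets were tested for that reason. Of the 456 member probesets, 292 (64%) were lower in KIS-ko, against 66.2% of all probesets. None passed the adjusted threshold (lowest adjusted p = 0.728), against 0.00487% of all probesets. At an unadjusted p under 0.05, 9 (1.97%) were lower and 3 (0.658%) higher, against 4.72% and 1.91% of all probesets. The lowest p belonged to probeset 9 of Cacna1d, at 30992402 to 30992505, which was below the detection limit on all arrays. It had 145, 177 and 234 (lowest, median, highest) in wildtype and 100, 145 and 202 in KIS-ko brains (limma, adjusted p = 0.728). Of the other 11, 3 lay in Cacna2d1, 3 in Cacna2d2, 3 in Cacna1c, 1 more in Cacna1d and 1 in Cacna1a.

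Exon profiles did not differ by genotype at the adjusted threshold either. In the test of each probeset relative to its gene on the same array, 16 member probesets (3.51%) had an unadjusted p under 0.05, against 6.11% of all probesets, and none passed after adjustment (lowest adjusted p = 0.745), against 0.000985% of all probesets. The lowest p belonged to probeset 15 of Cacna2d2, at 107416376 to 107416400, whose signals were 569, 808 and 843 in wildtype and 529, 605 and 808 in KIS-ko brains. Relative to the gene it was lower by 0.25 ± 0.072 (SE) on the log2 scale, in 6 of 6 litters (limma, adjusted p = 0.745). Probeset 6 of this gene, at 107408286 to 107408313, was lower by 0.15 ± 0.063 relative to the gene, in 6 of 6 litters. In Cacna1c probeset 62, at 118546116 to 118546144, was higher by 0.30 ± 0.089 relative to the gene (limma, adjusted p = 0.750). It was below the detection limit on all arrays and is marked as open to cross-hybridization. In the other genes the probesets of lowest p were as follows. Probeset 56 of Cacna1b, at 24463091 to 24463124, had signals of 1814, 1847 and 2044 in wildtype and 1915, 2061 and 2260 in KIS-ko brains. It is marked as open to cross-hybridization, and its difference was 0.14 ± 0.066. Probeset 15 of Cacna1e, at 156330274 to 156330325, had 834, 1191 and 1285 in wildtype and 942, 1275 and 1434 in KIS-ko brains, and relative to the gene it was higher by 0.12 ± 0.048, in 6 of 6 litters. Probeset 24 of Cacna1a, at 87083448 to 87083481, had 393, 495 and 671 in wildtype and 492, 572 and 837 in KIS-ko brains and was detected on 1 array.

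The groups overlapped in each of these 3. In Cacna1g, probeset 49 near the 3' end differed by -0.18 ± 0.094, and probeset 37 by 0.14 ± 0.063 relative to the gene. In Cacna1h, probeset 12 differed by 0.28 ± 0.15, and the last probeset by -0.10 ± 0.052 relative to the gene. In Cacna2d1, probeset 13 had 3455, 4174 and 5669 in wildtype and 2994, 3687 and 4026 in KIS-ko brains, a difference of -0.26 ± 0.091 at a probeset open to cross-hybridization. Its probeset 36, which was detected on no array, was higher by 0.26 ± 0.095 relative to the gene.

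With 1 variance for each gene (diffSplice of limma, Simes test), no member was called, against 1.71% of 16390 genes, and 3 of 9 members had an unadjusted p under 0.05, against 12.1% of those genes, namely Cacna1h (0.0088), Cacna1c (0.019) and Cacna2d2 (0.040).

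Differences between litters that littermates share were tested in the same fit. In the F test of the litter terms, 5 of 9 members had an unadjusted p under 0.05 (Cacna1b, Cacna1d, Cacna1e, Cacna1g and Cacna2d2), against 11.3% of all genes, and none passed after adjustment, against 0% of all genes. The lowest was that of Cacna1e (limma, unadjusted p = 0.0042, adjusted p = 0.225). The number with an unadjusted p under 0.05 was 0 with each array centred on its own median (14.5% of all genes), 3 after a new quantile normalization (15.1%), 1 with the median over probesets as the gene value (10.05%), and 0 without litter 5 (3.91%).

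Litter 5, singled out after its values were seen, was the one that stood apart. In Cacna1e its littermates had gene values of 10.19 (wildtype) and 10.16 (KIS-ko), and the other 10 brains lay between 10.45 and 10.68. In Cacna1b they had 10.66 and 10.71, against 10.87 to 11.02. In Cacna1g they had 10.20 and 10.21, against 10.41 to 10.62. In 6 of 9 members both littermates were the lowest of the 12 brains, against 13.1% of all genes, and after centring this held for Cacna1b, Cacna1e, Cacna1g and Cacna2d2, against 8.07% of all genes. As deposited, in no other litter were both littermates the lowest in any member, and after centring this was so for 1 member in litter 1. Cacna1a and Cacna1c differed least, with litter 5 at -0.076 and -0.10 from the mean of the other litters, against -0.39 in Cacna1e, and after centring they stood at 0.017 and -0.0085.

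The deviation of litter 5 moved with the number of probesets of a gene. Its median was -0.25 over the members and -0.032 over all genes, but -0.10 over the 309 genes with 38 to 66 probesets, the range of the members, of which 36.6% had both littermates lowest. It was -0.16 over the 43 genes with more. The median gene value also rose with the number of probesets, from 7.39 at 1 to 5 probesets to 9.65 at 38 to 66. It was 8.91 in the genes with more. Among the lists, the median deviation in this litter was -0.12 for astrocyte and radial glia markers, -0.098 for endothelial markers, -0.087 for calcium stores, pumps and exchangers, -0.079 for presynaptic genes and -0.063 for oligodendrocyte markers. It was -0.0068 for neuron markers, and lay between -0.032 and 0.039 for the other 7 lists. The gap in log2 signal between the 3' and the 5' portion of a gene's probesets, a median over 9656 genes with at least 9 probesets, was -0.19 and -0.22 on the arrays of litter 5 and -0.20 to -0.15 on the others. Over the members this gap went the other way, at 0.22 and 0.17 on the arrays of litter 5 and 0.027 to 0.18 on the others. The part of gene length, signal level, RNA quality or other cell types in the litter values was not tested.

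**Figure D5:**
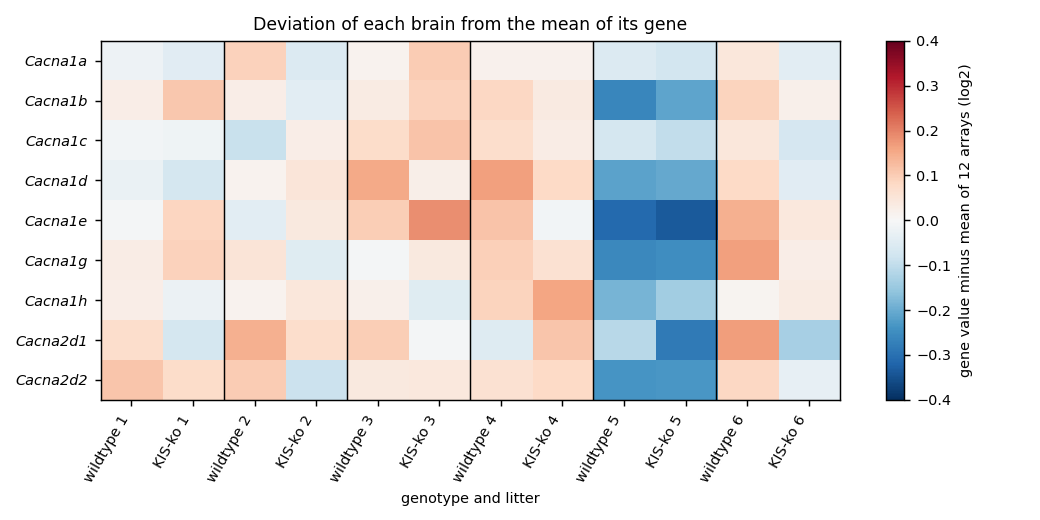
Gene value of each brain minus the mean of its gene over the 12 arrays (log2, colour scale from -0.4 in blue to 0.4 in red), with genes as rows and brains as columns, littermates side by side. The columns of litter 5 are blue in all 9 genes, and deepest in Cacna1e.

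Across the 12 brains, 35 of 36 pairs of members (97.2%) had a positive correlation after centring of the arrays, with a median r of 0.49. Of the pairs of genes with 38 to 66 probesets 62.3% were positive, with a median r of 0.15, and of all pairs of genes 54.8%, with a median of 0.053. Among members r ranged from -0.026 for Cacna1a with Cacna2d1 to 0.94 for Cacna1b with Cacna1e. The points share the litters, the arrays and the value each array was centred on, and the correlations are a description. The 5 genes whose centred values were most like the mean of the members over the 12 arrays were Trrap (r = 0.968), Madd (0.95), Herc2 (0.949), Syne1 (0.945) and Ank3 (0.942). They had 36 to 103 probesets, and litter 5 stood 0.19 to 0.38 below the other litters in each of them on the log2 scale. Since the mean of the members was itself lowest in litter 5, this follows from how they were chosen.

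Other genes that act with these channels were followed by list. Of 16 other subunit genes, 11 were measured, and 6 were lower as deposited but 3 after centring, with none past the adjusted threshold. The auxiliary beta subunits were detected at birth, Cacnb3 in 13 of 13 probesets and Cacnb1, Cacnb2 and Cacnb4 in 68.4% to 68.8% of theirs. Cacnb2 had the lowest p of this list (difference -0.12 ± 0.055, unadjusted p = 0.047, limma, adjusted p = 0.685), followed by Cacnb4 (-0.072 ± 0.054) and Cacna2d3 (-0.060 ± 0.050). Cacnb1 had -0.039 ± 0.045 and Cacnb3 0.021 ± 0.053. After centring these 5 stood at -0.067 for Cacnb2, -0.017 for Cacnb4, -0.0044 for Cacna2d3, 0.017 for Cacnb1 and 0.077 for Cacnb3.

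Calcium stores, pumps and exchangers had 19 of 21 genes measured, with 17 lower as deposited and 5 after centring, and none had an unadjusted p under 0.05. The lowest by p were Itpr2, an inositol trisphosphate receptor near background with 1 of 55 probesets detected on all arrays (-0.081 ± 0.052), and Ryr2, a ryanodine receptor (-0.078 ± 0.050). Of 17 presynaptic partners 16 were measured, with 12 lower and 3 after centring, and none had an unadjusted p under 0.05. Syt1, the calcium sensor of vesicle release, had the lowest p (-0.075 ± 0.046), and Rims2, which tethers channels at the active zone, stood at -0.057 ± 0.050. All 10 calcium-dependent kinase and calmodulin genes were measured, with 9 lower and 5 after centring. Camkk1, a kinase that activates other calmodulin kinases, had 4 of 18 probesets detected on all arrays and was lowest by p (-0.12 ± 0.051, unadjusted p = 0.037, limma, adjusted p = 0.685), followed by Camk2d (-0.12 ± 0.056). After centring, the differences were -0.026 for Itpr2, -0.022 for Ryr2, -0.019 for Syt1, -0.0014 for Rims2, -0.066 for Camkk1 and -0.064 for Camk2d. The medians of these 4 lists were -0.0035, -0.045, -0.034 and -0.058, against -0.036 over all genes.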

How the data were processed

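Per the labels, total RNA of whole newborn brains was biotin-labelled and hybridized to Affymetrix exon arrays. The authors processed the arrays with the Affymetrix Expression Console, by quantile normalization at the exon level and PLIER, and deposited linear signal intensity per probeset and array. The build of the positions is not given in the sources used here.

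Main probesets with a gene symbol (221417 of 229581) were used, and those with a relative SD above 0.4 in either genotype (15948) were rejected as in the methods. Intensities were transformed as log2(signal + 16), and genes were the mean over probesets. Genes, probesets and exon profiles (probeset minus gene mean, in genes with at least 3 probesets) were fitted in limma 3.58.1 (R 4.3.3), with genotype and litter as fixed terms and Benjamini-Hochberg adjustment over all features at 0.05. The fits were tested on simulated data with independent noise and no litter or array effects, unlike the data here. The litter terms were tested by an F test with 5 degrees of freedom. Figures were drawn with matplotlib 3.10.9. The pairing comes from the litter numbers of the labels. The number of arrays limits the precision. Promoter windows were taken from RefSeq (GRCm38.p6).

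The members and lists were chosen with earlier results of these data known. The text names every member, per member probesets by lowest p, the targeted gene, listed calcium genes of lowest p, and the 5 genes most like the members' mean. Alternatives were leaving out the litter terms, pseudocounts of 1 or 64, no filter or a relative SD of at most 0.2, dim probesets left out, centred or again quantile-normalized arrays, subtraction of the median intron control, probesets matching 1 place, gene values as medians, robust moderation with a trend, the methods' fold change, diffSplice, and each litter left out. Those for detection at birth were chosen after seeing the data.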

Additional observations from a re-analysis of the deposited data

Results flagged for a closer look

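For each member, the 6 wildtype values, the 6 KIS-ko values and the 6 differences within litters were examined, and in 3 of these 27 sets 1 value stood far from the rest, where chance gives about 1 in 20. All 3 were the wildtype brain of litter 5. Its gene value was 10.655 for Cacna1b, where the other wildtype brains lay between 10.9404 and 11.0032. It was 10.4613 for Cacna1h, with the others between 10.6587 and 10.7378, and 10.4669 for Cacna2d2, with the others between 10.7422 and 10.8135. The KIS-ko littermate was the lowest of its group in the same genes.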

How the results depend on the processing

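No member gene, probeset or exon profile was called after adjustment in the alternatives fitted with limma, exon profiles by diffSplice included, and no member gene between litters in those that keep the litter terms. The methods' fold change gives no calls. Without the replicate block, 0 members were called, as with it. After centring of the arrays, the median difference of the members was 0.030 and 2 members were lower, and 3 were lower after a new quantile normalization. Cacna1a then stood at 0.023 (centred) and 0.0016 (quantile), Cacna1g at 0.030 and 0.0094, Cacna1c at 0.051 and 0.034, and Cacna2d2 at 0.0036 (centred). Cacna1c was also above 0 with a relative SD of at most 0.2 (0.0025), with the intron background subtracted (0.020), with the median over probesets (0.0045) and by the methods' fold change (0.0063). With the median over probesets, Cacna1b was -0.011 and Cacna1e -0.0044. With each litter left out in turn, the median difference of the members ranged from -0.040 to -0.0032. Then 5 to 8 members were lower, where 65.8% to 71.8% of all genes were. In the same fits Cacna1b ranged from -0.014 to 0.016, Cacna1c from -0.029 to 0.016, Cacna1e from -0.017 to 0.027 and Cacna1h from -0.0037 to 0.024. The causes were not tested. Without litter 4, the members with an unadjusted p under 0.05 numbered 1 gene, 37 probesets and 42 exon profile values, against 0, 12 and 16 in all litters, while the shares of all genes, probesets and exon profile values went to 22.6%, 16.1% and 12.2%, from 6.16%, 6.63% and 6.11%. The member probesets numbered 7 without the block, where 5.79% of all probesets had such a p. Without litters 1, 2, 5 and 6 they numbered 6, 7, 8 and 4 (4.94%, 4.64%, 6.97% and 3.85% of all probesets). The exon profile values of the members numbered 9, 10, 7 and 4 without these litters (5.10%, 4.83%, 6.72% and 4.21% of all values). With the intron background subtracted 23 probesets had such a p (5.16% of all probesets did), and 22 with robust moderation and a trend (6.98%). Exon profile values numbered 10 with the latter (5.99% of all values). By diffSplice they numbered 31, and the share of all probesets was not counted there. The share of member probesets detected on all arrays was 97.8% with the median intron control as the limit and 75.7% to 78.3% with each litter left out. The number of arrays limits the size of difference that could be detected, and dim probesets carry little signal over background.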
